A study of Mus musculus with 4 samples.

Results

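*Aff3*, *Nt5e* and *Isoc2a* are 3 of 19609 mouse genes measured by single nucleus RNA sequencing of kidney cortex. They were chosen by their level in the proximal tubule cluster PT-S3-2, where they lay among the largest differences between 1 mouse overexpressing human KLF6, a zinc finger transcription factor, and 1 control mouse, both without injury. That difference is therefore given as a description. The uninjured pair in the other 22 clusters is the same contrast of the same mice and is described in the same way. A separate pair of mice, given aristolochic acid I (AAI), a plant nephrotoxin taken up by the proximal tubule, took no part in the choice.

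The 4 mice were males of mixed strain, 1 for each condition. Both control mice carried the TRE-hKLF6 responder transgene alone, and both hKLF6-OE mice carried CAG-rtTA with TRE-hKLF6, in which a doxycycline-dependent activator under a broadly active promoter drives human KLF6 in the whole animal. All 4 received doxycycline in the diet for 1 week, and their libraries were prepared together. AAI was injected 1 time at 2 mg/kg and the kidneys were collected 24 hours later. The uninjured mice received no AAI. The study's methods give DMSO alone, the solvent of AAI, as the control injection, and do not state it separately for these mice. The age of these mice is not given in the sources used here. With 1 mouse per condition there was no spread between replicates and no test between conditions, and the genotype, the individual mouse and its share of the mixed background cannot be told apart.

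The 3 genes encode proteins of unrelated kinds. *Aff3* encodes a nuclear protein of the AFF family, whose members act as scaffolds for factors that release RNA polymerase II into elongation. *Nt5e* encodes CD73, a membrane-anchored enzyme on the cell surface that converts extracellular AMP to adenosine, and the kidney carries it on proximal tubule brush border and on interstitial fibroblasts. *Isoc2a* encodes a small protein with an isochorismatase-like domain, and it has a close paralog, *Isoc2b*. The S3 segment, where the proximal tubule straightens and descends from the cortex, is the part most damaged by AAI.

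Each value is the mean over nuclei of 1 cluster and 1 mouse, after every nucleus was brought to a total of 10000 counts, and is called a level here. Differences were taken on the log2(level + 1) scale, which understates the change of low genes. A gene passed when the larger of the 2 levels was at least 0.5, and a difference of at least 0.2 was called higher or lower. Of the marker lists, the one matched to the cluster name scored first in 22 of 23 clusters. The exception was MC, where 3 fibroblast genes scored above the mesangial ones. PT-S3-1 was matched to the general proximal tubule list, and the S3 list came second there. In the 5 normal proximal tubule clusters 15.1% to 31.3% of genes were at 0, and elsewhere up to 63.4%. The 5th percentile of levels above 0, a rough measure of the smallest step a column can show, lay between 0.00206 and 0.0125 in the normal proximal tubule and reached 0.193 elsewhere. The numbers of nuclei and reads behind each level were not held, so no level carries an interval.

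In PT-S3-2, *Aff3* without injury was 0.0244 in the control mouse against 1.12 in the hKLF6-OE mouse, a ratio of 45.8 and a log2 difference of 1.05. *Nt5e* was 2.60 and 6.15 in the same mice, a ratio of 2.36 and a log2 difference of 0.99. *Isoc2a* was 1.61 and 0.327, so that the control level was 4.93 times the hKLF6-OE level, and the log2 difference was -0.98. Of 4047 genes that passed, 8.35% were called higher and 13.5% lower in the hKLF6-OE mouse, and all 3 genes lay far beyond the threshold, as the choice requires. *Aff3* ranked 2 and *Nt5e* ranked 3 from the highest difference, between *Bcat1* at 1.14, a cytosolic aminotransferase for branched-chain amino acids, and *Ttr* at 0.98, the carrier of thyroxine and retinol-binding protein, with the death receptor *Tnfrsf21* next at 0.97. *Isoc2a* ranked 3 from the lowest, after *Gclc* at -1.32, the catalytic subunit that starts glutathione synthesis, and *Ehhadh* at -1.13, a peroxisomal enzyme of fatty acid oxidation, and before the cytokine *Il34* and the Ral exchange factor *Rgl1*, both at -0.80.

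The AAI-treated pair divided the 3 genes. *Aff3* in PT-S3-2 with AAI was 0.876 in the control mouse against 1.30 in the hKLF6-OE mouse, a log2 difference of 0.29. *Nt5e* was 2.35 and 1.89, a difference of -0.21 that was called lower. *Isoc2a* was 1.73 and 1.62, a difference of -0.06 that was not called. *Aff3* thus kept its direction at a smaller size, *Nt5e* took the opposite direction near the threshold, and *Isoc2a* had nearly equal levels. With a pseudocount of 0.1 in place of 1 the *Aff3* differences were 3.29 without injury and 0.52 with AAI, and that of *Isoc2a* without injury was -2.002. With AAI, 8.39% of 3824 genes were called higher and 8.03% lower in PT-S3-2. Keeping a call was uncommon in this cluster for genes in general. Of 338 genes higher without injury, 26 (7.69%) were also among the 321 higher with AAI (8.10% of that list), and 53 (15.7%) were lower. Of the 548 lower without injury, 63 (11.5%) were among the 307 lower with AAI (20.5% of that list), and 76 (13.9%) were higher. As a share of the 3603 genes that passed in both pairs, genes higher in both, as *Aff3* was, were 0.722%, and genes higher without injury and lower with AAI, as *Nt5e* was, were 1.47%. The uninjured call in both shares was fixed by the choice, so these shares are no support. Only the call with AAI was free, and its shares were the 8.39% higher and 8.03% lower given above.

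**Figure D1:**
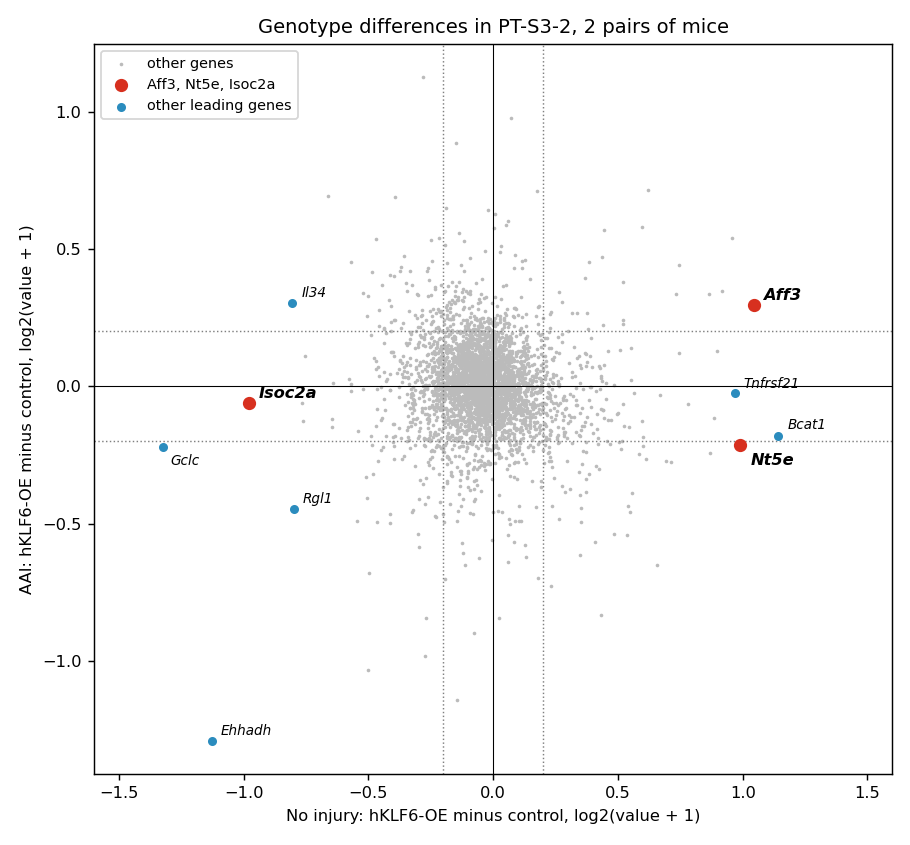
Each point is 1 gene of PT-S3-2, with the genotype difference of the uninjured pair on the x axis and that of the AAI-treated pair on the y axis, both as hKLF6-OE minus control on the log2(level + 1) scale; dotted lines mark the threshold of 0.2. *Aff3* lies above the line in both pairs (1.05 and 0.29), *Nt5e* lies to the right and just below the lower line (0.99 and -0.21), and *Isoc2a* lies to the left near 0 on the y axis (-0.98 and -0.06).

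Read across the 4 mice, each gene had 1 mouse of PT-S3-2 set apart from the other 3. For *Aff3* it was the uninjured control mouse, 0.87 below the nearest other mouse on the log2 scale, while the other 3 spanned 0.29. For *Nt5e* it was the uninjured hKLF6-OE mouse, 0.99 above the nearest other, with the other 3 within 0.32. For *Isoc2a* it was again the uninjured hKLF6-OE mouse, 0.98 below the nearest other, with the other 3 within 0.06. Gaps of at least 0.5 were few among the 4268 genes of PT-S3-2 that reached 0.5 in any mouse. The uninjured control mouse lay that far below the rest for 6 genes (0.141%), and the uninjured hKLF6-OE mouse for 20 genes above (0.469%) and 5 below (0.117%). The uninjured pair chose these genes, so these shares describe the choice and are no support for it. Levels of S3 markers in the cluster did not follow the same split. The 5 S3 markers, all detected, summed to 73.0 in the control mouse, 88.1 with AAI, 73.2 in the hKLF6-OE mouse and 82.4 with AAI. The 8 injured proximal tubule markers summed to 3.60, 3.63, 2.26 and 3.56 in the same order, lowest in the mouse where *Isoc2a* was lowest. That list includes *Il34*, itself at -0.80 without injury. The 6 general proximal tubule markers summed to 47.2, 35.9, 39.9 and 35.1, highest in the uninjured control mouse. The part of these cell states in the 3 genes was not tested.

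*Aff3* spans 487630 bases of the minus strand at chr1:38177326-38664955 (GRCm38). The 250 bases before its RefSeq start, at chr1:38627245-38627494, lie inside the gene as GENCODE annotates it and outside its exons. They are shown because KLF6 belongs to a family that binds GC boxes and CACCC boxes, and capitals mark GGGCGG or its reverse complement CCGCCC, and CACCC or its reverse complement GGGTG, which covers both strands; the 2 motifs share no letters here.
Aff3 promoter: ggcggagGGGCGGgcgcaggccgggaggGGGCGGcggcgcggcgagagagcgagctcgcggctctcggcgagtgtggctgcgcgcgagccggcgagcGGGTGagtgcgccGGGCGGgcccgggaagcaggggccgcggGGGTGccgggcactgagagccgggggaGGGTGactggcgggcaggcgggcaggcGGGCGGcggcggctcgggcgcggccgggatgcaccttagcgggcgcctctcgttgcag
This window held 4 GC boxes and 3 CACCC boxes. Over all 32851 RefSeq promoter windows of the same length, 32.7% held a GC box and 52.0% a CACCC box, and binding was not measured in these data. These are shares of windows with any such box, and no share was taken of windows with as many.

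Across the kidney, *Aff3* was mainly a transcript of podocytes, the filtering cells of the glomerulus. Its mean over the 4 mice was 3.64 ± 1.78 (SD, n = 4, conditions pooled) in podocytes, 1.93 ± 0.546 in macrophages, 1.24 ± 0.905 in the descending limb cluster LH-DL and 0.830 ± 0.564 in PT-S3-2. The ranges of neighbours in that order overlapped. MC followed at 0.473 ± 0.0561 and PT-S3-3 at 0.325 ± 0.242, and the remaining 17 clusters had means of 0.215 or less. Within the normal proximal tubule *Aff3* was highest in PT-S3-2 and PT-S3-3, and both S1-S2 clusters stayed at or under 0.0620 in every mouse.

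The genotype difference of *Aff3* did not hold in every cluster. It passed in 4 clusters without injury and in 6 with AAI, of 23. Without injury it was called higher in the hKLF6-OE mouse in PT-S3-2 alone, and lower in podocytes and LH-DL. With AAI it was higher in PT-S3-2, PT-S3-3 and LH-DL and lower in podocytes and macrophages. Over genes and clusters together, 22.4% of 108370 pairs of gene and cluster were called higher and 27.4% lower without injury, and 20.8% and 23.8% of 105462 with AAI. By cluster the shares called higher ran from 8.24% to 39.7% without injury and from 6.78% to 40.8% with AAI. A call of higher in at least as many clusters as *Aff3* was found in 90.4% of genes that passed as widely without injury and in 56.5% with AAI, so its count of clusters is no result about *Aff3*.

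PT-S3-3 repeated the order of PT-S3-2 at lower levels. *Aff3* there was 0.0110 in the control mouse, 0.258 with AAI, 0.499 in the hKLF6-OE mouse and 0.530 with AAI. The uninjured difference of 0.57 just missed the filter, with its larger level a little under 0.5, and the AAI difference was 0.28, in a cluster where 13.6% of genes were called higher with AAI. In PT-S3-1 the uninjured hKLF6-OE mouse stood alone at 0.302, with the other 3 between 0.00961 and 0.0201. Both hKLF6-OE mice thus lay above both control mice in PT-S3-2 and PT-S3-3, an arrangement found in 7.24% and 7.25% of genes and in part fixed by the choice, and in MC, where it was found in 15.2%.

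Some clusters outside the proximal tubule showed a partly like order for *Aff3* under the filter. The uninjured control mouse was lowest in EC-1 and DCT/CNT, as in PT-S3-2 and PT-S3-3. The uninjured hKLF6-OE mouse was highest there, where in PT-S3-2 and PT-S3-3 it was the hKLF6-OE mouse with AAI. EC-1 had 0.0452, 0.118, 0.422 and 0.277, and DCT/CNT had 0.0104, 0.158, 0.410 and 0.247, in the order control, control with AAI, hKLF6-OE and hKLF6-OE with AAI. Both clusters also held proximal tubule transcripts. The 6 general proximal tubule markers summed to between 62.8 and 83.4 in EC-1, where the 6 endothelial markers summed to between 9.91 and 13.1, and to between 56.3 and 72.6 in DCT/CNT. The 5 S3 markers summed to at least 15.8 in EC-1 and 14.7 in DCT/CNT in every mouse. All these markers were detected, and the part of these transcripts in the *Aff3* levels was not tested.

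In podocytes both differences of *Aff3* were negative. *Aff3* in podocytes was 5.14 in the control mouse, 5.16 in the control mouse with AAI, 2.55 in the hKLF6-OE mouse and 1.71 in the hKLF6-OE mouse with AAI. The genotype difference was -0.79 without injury, rank 51 from the lowest of 4437 genes, and -1.19 with AAI, rank 5 from the lowest of 3947. In podocytes 29.5% of genes were called lower without injury and 25.7% with AAI. Genes lower in both pairs made up 8.12% of those that passed in both, and genes with both hKLF6-OE mice below both control mice 15.2%. The 5 podocyte markers, all detected, summed to 84.0, 78.8, 79.4 and 89.9 in the same order of mice. The sum of the hKLF6-OE mouse was below the control without injury and above it with AAI. The part of podocyte content in the *Aff3* levels was not tested. In macrophages *Aff3* was 2.22, 2.39, 1.97 and 1.16, a difference of -0.12 without injury and -0.65 with AAI. With AAI 42.4% of genes were called lower there, and in 15.7% both hKLF6-OE mice lay below both control mice. The 6 macrophage markers there summed to between 27.9 and 30.7. In the same order of mice the 3 T cell markers, of which 2 were detected, summed to 3.82, 3.99, 1.83 and 2.44, with both hKLF6-OE mice below both control mice, and the 6 endothelial markers, of which 5 were detected, to 16.4, 25.4, 15.3 and 13.7. Their part in the *Aff3* levels was not tested.

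LH-DL gave opposite signs. *Aff3* was 1.18 in the control mouse, 1.35 with AAI, 0.118 in the hKLF6-OE mouse and 2.33 with AAI, so the genotype difference was -0.97 without injury and 0.50 with AAI. In this sparse cluster 43.2% of genes were called lower without injury and 35.2% higher with AAI. Podocyte markers moved with it: they summed to 12.1, 14.8, 1.67 and 15.6 in the same order, with all 5 detected, and their part in the result was not tested. In PT-S3-2 podocyte markers summed to between 0.242 and 0.384. Macrophage markers there summed to 1.20, 0.839, 0.936 and 0.876 in the same order, above every sum in the other 4 normal proximal tubule clusters, and their part in the *Aff3* levels was not tested.

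**Figure D2:**
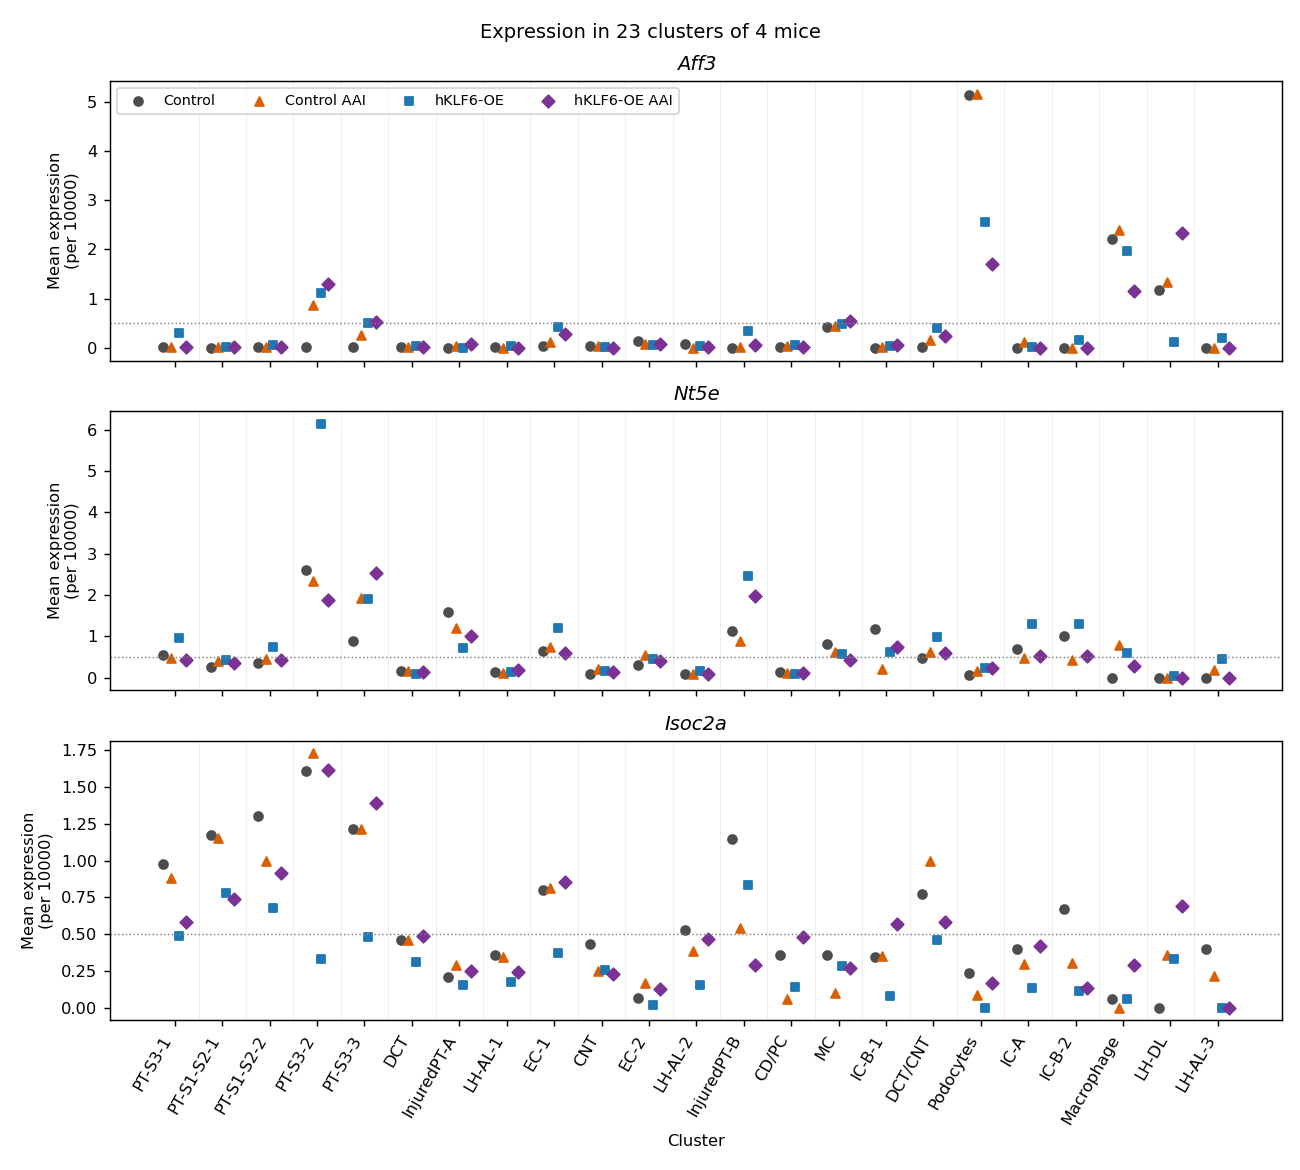
Level per 10000 counts (y axis, linear) of each gene in the 23 clusters (x axis), 1 point per mouse; the dotted line marks the filter of 0.5. *Aff3* is highest in podocytes in 3 mice, at 5.14, 5.16 and 2.55, while in the hKLF6-OE mouse with AAI it is 2.33 in LH-DL and 1.71 in podocytes; *Nt5e* peaks at 6.15 in PT-S3-2 of the uninjured hKLF6-OE mouse; *Isoc2a* is lowest in the uninjured hKLF6-OE mouse in PT-S3-2 and PT-S3-3.

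*Nt5e* lies on the plus strand at chr9:88327197-88372092 (GRCm38), and the window before its RefSeq start lies within exon sequence of the GENCODE annotation and is not shown. It was highest in 2 of the S3 clusters and in the injured proximal tubule. The mean over the 4 mice was 3.25 ± 1.96 in PT-S3-2, 1.81 ± 0.676 in PT-S3-3, 1.61 ± 0.736 in InjuredPT-B and 1.13 ± 0.361 in InjuredPT-A (SD, n = 4, conditions pooled). Neighbours in that order had overlapping ranges. All other clusters had means of 0.816 or less, among them PT-S3-1, the third cluster named S3, at 0.606. The loop of Henle, principal cell and DCT clusters had means of 0.157 or less.

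Without injury, *Nt5e* was higher in the hKLF6-OE mouse in many clusters. It passed in 13 of 23, and was called higher in 9, lower in InjuredPT-A and IC-B-1, and neither in MC and IC-B-2. In PT-S1-S2-2, DCT/CNT and macrophages only the hKLF6-OE level of *Nt5e* reached 0.5, so passing there implied a level above the control. For *Nt5e* the signs were also counted without the filter. Without the filter it was above the control level in 18 clusters and below it in 5. Of 4107 genes that passed in at least as many clusters, 9.67% were called higher in at least as many. No such share was taken for the count of signs without the filter. In the S1-S2 cluster PT-S1-S2-2 it was 0.364 against 0.731, a difference of 0.34, and in PT-S3-1 it was 0.548 against 0.967, a difference of 0.35. These 2 clusters and PT-S3-2 shared 1 feature: the uninjured hKLF6-OE mouse was the highest of the 4, and the other 3 lay together. The feature was not confined to the proximal tubule. In EC-1, DCT/CNT and IC-A that mouse was at 1.21, 0.986 and 1.30, and the other 3 at or under 0.741, 0.615 and 0.690. EC-1 and DCT/CNT also held proximal tubule transcripts, as given above for *Aff3*, and their part in the *Nt5e* levels was not tested.

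With AAI fewer clusters differed. *Nt5e* passed in 12 clusters and was called higher in 3, PT-S3-3, InjuredPT-B and IC-B-1, and lower in PT-S3-2 and macrophages; 66.1% of genes that passed in as many clusters were called higher in at least as many. Without the filter it was above the control level in 8 clusters and below it in 14, again with no share over all genes. In PT-S3-1 the AAI-treated pair had 0.486 and 0.424, and in PT-S1-S2-2 it had 0.456 and 0.425. PT-S3-3 differed from PT-S3-2 in which mouse lay apart. There *Nt5e* was 0.895 in the control mouse, 1.93 with AAI, 1.90 in the hKLF6-OE mouse and 2.53 with AAI, so the uninjured control mouse lay 0.61 below the nearest other, and the genotype difference was 0.61 without injury and 0.27 with AAI. In PT-S3-3 9.19% of genes were called higher without injury.

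The 2 injured clusters disagreed on *Nt5e*. In InjuredPT-B it was 1.13 in the control mouse, 0.881 with AAI, 2.47 in the hKLF6-OE mouse and 1.97 with AAI. Both hKLF6-OE mice lay above both control mice, an arrangement found in 9.99% of genes there, and the differences were 0.70 and 0.66, where 35.9% and 17.6% of genes were called higher. In InjuredPT-A it was 1.58, 1.21, 0.723 and 1.00 in the same order, with differences of -0.58 and -0.14, and 43.5% of genes were called lower there without injury. In MC *Nt5e* was 0.814, 0.631, 0.582 and 0.435, with both hKLF6-OE mice below both control mice, as for 18.6% of genes, and with neither difference called. The uninjured columns of the injured clusters were sparse, with a 5th percentile of levels above 0 of 0.191 and 0.0515 in InjuredPT-A and 0.0675 and 0.0959 in InjuredPT-B, control mouse first, against 0.0126 or less with AAI. With AAI the difference in InjuredPT-B ranked 34 of 4744 genes from the highest.

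**Figure D3:**
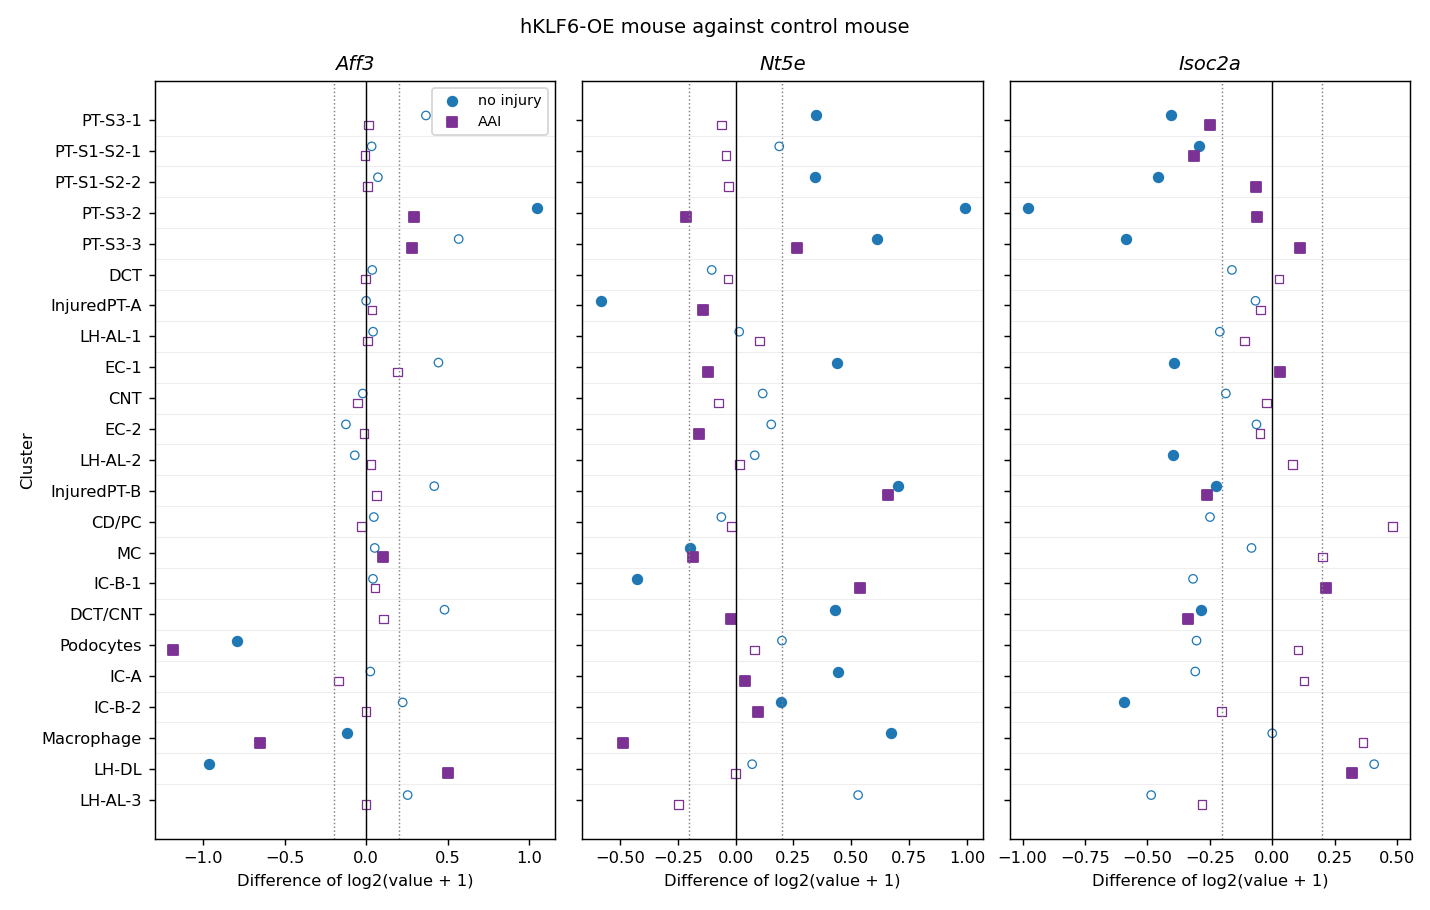
Genotype difference (x axis, hKLF6-OE minus control, log2(level + 1)) of each gene in each of the 23 clusters (y axis), for the uninjured pair (blue circles) and the AAI-treated pair (purple squares); open symbols did not pass the filter of 0.5 and dotted lines mark 0.2. Without injury the *Isoc2a* points lie below 0 in 21 clusters and the *Nt5e* points above 0 in 18. With AAI they lie on both sides, while *Aff3* lies far below 0 in podocytes in both pairs. No share over all genes was taken for these counts of signs.

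*Isoc2a* lies on the plus strand at chr7:4877153-4896973 (GRCm38), and *Isoc2b* lies beside it on the minus strand at chr7:4844959-4870258. The first 90 coding bases of both are printed because reads from one copy could be assigned to the other; capitals mark the 13 bases that differ.
Isoc2a: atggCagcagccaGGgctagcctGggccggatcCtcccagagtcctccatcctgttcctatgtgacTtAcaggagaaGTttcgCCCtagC
Isoc2b: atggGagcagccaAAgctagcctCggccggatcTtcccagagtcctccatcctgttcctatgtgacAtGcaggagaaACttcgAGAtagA
The coding sequences have 618 and 630 bases. Of 2220 runs of 25 bases in the spliced *Isoc2a* transcript, 8 (0.360%) also occur in that of *Isoc2b*. Introns, which a pre-mRNA reference also counts, were not compared, so assignment of reads between the 2 genes was not tested. The paralog was low in PT-S3-2 in all 4 mice, at 0.112, 0.150, 0.102 and 0.0784, and never passed there, while *Isoc2a* was 1.61 in the uninjured control mouse and 0.327 in its hKLF6-OE counterpart. The 250 bases before the RefSeq start of *Isoc2a*, at chr7:4876803-4877052, are shown for comparison with *Aff3*, with the same motifs in capitals.
Isoc2a promoter: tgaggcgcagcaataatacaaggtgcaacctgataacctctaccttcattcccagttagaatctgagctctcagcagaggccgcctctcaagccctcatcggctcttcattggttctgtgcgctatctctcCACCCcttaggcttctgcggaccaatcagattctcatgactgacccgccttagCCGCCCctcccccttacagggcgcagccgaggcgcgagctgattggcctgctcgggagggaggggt
This window held 1 GC box and 1 CACCC box. The windows of *Nt5e* and *Isoc2b*, not shown, held 4 and 4 and 0 and 2, GC boxes first. No share over all windows was taken for these counts.

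*Isoc2a* was a proximal tubule gene of all segments. Its mean over the 4 mice was 1.32 ± 0.665 in PT-S3-2, 1.08 ± 0.406 in PT-S3-3, 0.974 ± 0.259 in PT-S1-S2-2, 0.961 ± 0.237 in PT-S1-S2-1 and 0.732 ± 0.232 in PT-S3-1 (SD, n = 4, conditions pooled). The ranges of these 5 clusters overlapped. EC-1, InjuredPT-B and DCT/CNT followed, with means between 0.701 and 0.710, and in no other cluster was the mean above 0.428.

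*Isoc2a* had a genotype difference of one sign in nearly every cluster without injury. It passed in 10 clusters and was called lower in the hKLF6-OE mouse in all 10, and without the filter it was below the control level in 21 of 23 clusters. In PT-S3-1, PT-S3-2, PT-S3-3, EC-1, LH-AL-2, DCT/CNT and IC-B-2 only the control level reached 0.5. Passing there implied a lower hKLF6-OE level. Of 4631 genes that passed in at least 10 clusters, 9.33% were called lower in at least as many. No such share was taken for the count of signs without the filter. Over all genes that passed, the median uninjured difference was also below 0 in nearly every cluster, from -0.11 in InjuredPT-A to 0.02 in podocytes. In the normal proximal tubule the uninjured differences were -0.98 in PT-S3-2, -0.59 in PT-S3-3, -0.46 in PT-S1-S2-2, -0.41 in PT-S3-1 and -0.29 in PT-S1-S2-1. With AAI it passed in 10 clusters and was called lower in 4, PT-S3-1, PT-S1-S2-1, InjuredPT-B and DCT/CNT, and higher in IC-B-1 and LH-DL; 50.9% of genes that passed in as many were called lower in at least 4.

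With AAI the genotype difference of *Isoc2a* varied between proximal tubule clusters. In PT-S3-2 and PT-S3-3 it was -0.06 and 0.11, neither of them called. *Isoc2a* in PT-S3-3 was 1.22 in the control mouse, 1.21 with AAI, 0.479 in the hKLF6-OE mouse and 1.39 with AAI, so that, as in PT-S3-2, the uninjured hKLF6-OE mouse alone was low. In PT-S1-S2-1 the levels fell into 2 pairs by genotype. They were 1.18 in the control mouse, 1.16 with AAI, 0.777 in the hKLF6-OE mouse and 0.735 with AAI, with differences of -0.29 and -0.31. In this cluster 10.7% of genes were called lower without injury and 12.4% with AAI. Genes lower in both pairs of PT-S1-S2-1 were 2.46% of those that passed in both. PT-S3-1 had 0.974, 0.882, 0.489 and 0.585, with differences of -0.41 and -0.25, where 10.5% and 11.9% of genes were called lower, and 2.87% in both pairs. PT-S1-S2-2 had 1.31, 0.999, 0.679 and 0.914, with differences of -0.46 and -0.06.

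Outside the normal proximal tubule, *Isoc2a* in DCT/CNT was 0.774 in the control mouse, 0.996 with AAI, 0.457 in the hKLF6-OE mouse and 0.579 with AAI. DCT/CNT and EC-1 also held proximal tubule transcripts, as given above for *Aff3*, and their part in the *Isoc2a* levels was not tested. In IC-B-2, a cluster of type B intercalated cells, *Isoc2a* was 0.674, 0.305, 0.110 and 0.133. In InjuredPT-B it was 1.15, 0.544, 0.836 and 0.289, with differences of -0.23 and -0.26. Both hKLF6-OE mice lay below both control mice in 5 of the 12 clusters where *Isoc2a* reached 0.5 in any mouse. These were PT-S3-1, PT-S1-S2-1, PT-S1-S2-2, DCT/CNT and IC-B-2, where 9.74%, 11.5%, 11.9%, 17% and 17.2% of genes were so arranged. In none of these 12 clusters did both hKLF6-OE mice lie above both control mice for *Isoc2a*, and in the other 7 the mice overlapped.

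AAI against no injury was compared within each genotype, and these comparisons share mice with those above. In control mice *Aff3* in PT-S3-2 was higher with AAI by 0.87, and was called in none of the other 3 clusters where it passed. *Nt5e* was called higher in 3 clusters (PT-S3-3, EC-2 and macrophages) and lower in 3 (InjuredPT-A, IC-B-1 and IC-B-2) of 13. *Isoc2a* was called lower in 3 of 10 (PT-S1-S2-2, InjuredPT-B and IC-B-2) and higher in none. Of all pairs of gene and cluster, 27.6% were called higher and 25.2% lower in this comparison.

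In hKLF6-OE mice *Nt5e* was lower with AAI in 9 of 13 clusters and higher in PT-S3-3 and InjuredPT-A, with a difference of -1.31 in PT-S3-2 against -0.10 in control mice. *Isoc2a* was higher with AAI in 5 of 10 clusters, by 0.98 in PT-S3-2, against 0.06 in control mice, and by 0.69 in PT-S3-3, and lower in InjuredPT-B by 0.51. *Aff3* passed in 6 clusters and was called in 3, higher in LH-DL by 1.57 and lower in podocytes at -0.39 and in macrophages at -0.46, and it differed by 0.12 in PT-S3-2 and was not called there. Of all pairs of gene and cluster, 31.6% were called higher and 26.2% lower. InjuredPT-B was the cluster where *Isoc2a* was lower with AAI in both genotypes, with differences of -0.48 and -0.51 on the log2 scale.

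**Figure D4:**
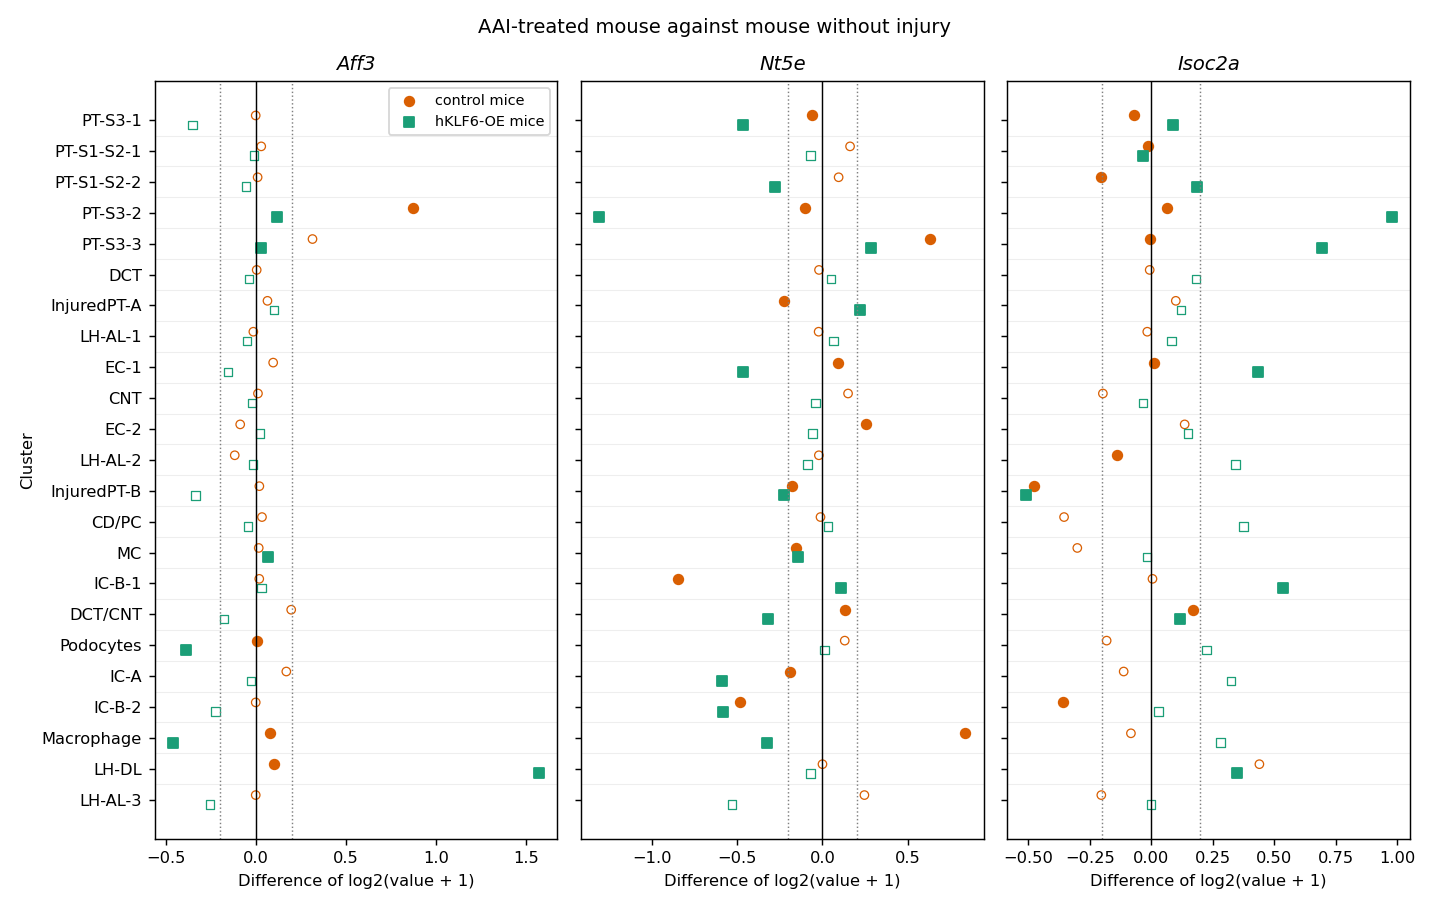
Difference between the AAI-treated and the uninjured mouse (x axis, log2(level + 1)) of each gene in each of the 23 clusters (y axis), within control mice (orange circles) and within hKLF6-OE mice (green squares); open symbols did not pass the filter of 0.5 and dotted lines mark 0.2. In PT-S3-2 *Aff3* is higher with AAI in control mice (0.87), *Nt5e* is lower in hKLF6-OE mice (-1.31) and *Isoc2a* is higher in hKLF6-OE mice (0.98).

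Genes of the same families were read in PT-S3-2, where 8.35% of all genes were called higher and 13.5% lower without injury, and 8.39% and 8.03% with AAI; each count includes the chosen gene. Of 17 genes of the AFF family and the elongation machinery it works with, 10 passed. Without injury 2 were higher, *Aff3* and *Mllt3*, and *Aff1* was among those lower, at -0.31, with a median of -0.01 over the 10 against -0.05 over all genes. With AAI 3 were higher, *Aff1* at 0.20, *Aff3* and *Mllt3*, and none lower, with a median of 0.07 against 0.00. *Mllt3*, a reader of acylated histones that joins AFF proteins in the elongation complex, was 2.19 in the control mouse, 2.45 with AAI, 3.31 in the hKLF6-OE mouse and 3.78 with AAI. Its differences were 0.43 and 0.47, so it was higher in both pairs as *Aff3* was.

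For *Nt5e*, 26 genes of extracellular nucleotide breakdown, adenosine receptors and nucleoside transport were listed, 23 were in the table and 6 passed. Without injury *Nt5e* alone was higher. *Adk*, which phosphorylates adenosine inside the cell, was lower at -0.27, *Dpp4*, a brush border peptidase, at -0.23, and *Slc28a1*, a sodium-coupled nucleoside transporter, at -0.36. With AAI *Entpd5*, a nucleoside diphosphatase, was higher at 0.23, and *Nt5e*, *Dpp4* at -0.22 and *Slc28a1* at -0.26 were lower. The median over the 6 was -0.20 without injury and -0.18 with AAI, against -0.05 and 0.00 over all genes. *Slc28a1* was 1.45 in the control mouse, 1.01 with AAI, 0.913 in the hKLF6-OE mouse and 0.683 with AAI, so both hKLF6-OE mice lay below both control mice, as for 14.2% of genes in PT-S3-2. Of 10 intracellular nucleotidases and AMP deaminases 2 of the 9 in the table passed, and *Nt5c3* was lower without injury at -0.20 and called neither with AAI. Of the 3 isochorismatase-like genes, *Isoc1*, *Isoc2a* and *Isoc2b*, only *Isoc2a* passed in PT-S3-2.

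Of the genes next to the 3 on the chromosome, only *Rev1* and *Eif5b* passed in PT-S3-2 without injury, and neither was called. No call could therefore be shared near *Nt5e* or *Isoc2a* in that pair. On the lower side of *Aff3*, *Rev1*, a DNA polymerase for bypass of lesions, differed by -0.06 without injury and was higher by 0.28 with AAI, and *Eif5b*, a translation factor, differed by 0.19 and -0.14. On the other side *Gm16152*, which overlaps *Aff3*, and *Lonrf2* did not pass. Near *Nt5e* none of *Cep162*, *Mrap2*, *Snx14* and *Gm20537* passed without injury, and near *Isoc2a* none of *Isoc2b*, *Shisa7*, *Gm36210* and *Zfp628* passed in either pair.

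The pattern of each gene over the 92 columns was compared with those of 11444 others by Pearson correlation, as a description across clusters that share mice and libraries. *Rnf150* (r = 0.83), *Ntng2* (r = 0.83) and *Il6ra* (r = 0.80) were closest to *Aff3*, and all 3 were highest in podocytes and at or under 0.0222 in PT-S3-2 of every mouse, where *Aff3* lay between 0.0244 and 1.30. *Wdr17*, *Acox2* and *Slc9a8* (r = 0.77 each) were closest to *Nt5e*, and all 3 were highest in PT-S3-2. In that cluster *Wdr17* was 3.49, 2.91, 3.69 and 3.21, *Acox2* was 1.72, 2.06, 2.53 and 2.53, and *Slc9a8* was 5.95, 4.60, 6.96 and 4.56, in the order control, control with AAI, hKLF6-OE and hKLF6-OE with AAI. All 3 were higher in the uninjured hKLF6-OE mouse than in the uninjured control mouse, by smaller ratios than *Nt5e*. *Osbpl3* (r = 0.80), *Adk* (r = 0.79) and *Sufu* (r = 0.77) were closest to *Isoc2a*. In PT-S3-2 *Osbpl3* was 13.1, 14.5, 10.9 and 18.5, *Adk* was 7.92, 7.64, 6.40 and 8.20, and *Sufu* was 1.92, 2.19, 2.49 and 2.61. *Osbpl3* and *Adk* had their lowest level in the uninjured hKLF6-OE mouse, as *Isoc2a* did, and *Sufu* did not.

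Mouse *Klf6* was 0.176 in the control mouse, 0.260 with AAI, 0.0725 in the hKLF6-OE mouse and 0.195 with AAI in PT-S3-2, and did not pass there. The table had no row for the human transgene, so its level in each mouse and cluster could not be set beside these genes.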

How the data were processed

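Nuclei from kidney cortex of 4 mice were sequenced on the 10X Chromium platform. Per the study's methods and labels, Cell Ranger with a pre-mRNA version of mm10 gave the counts, the authors dropped nuclei by gene number and mitochondrial share, and Seurat clustered the rest. How doublets were treated is not given. The deposited signal values are linear cluster means after scaling each nucleus to 10000, by the authors; which function took the means is not given, and the unit rests on the values, which sum to the same total in every column. The table used here holds averages, so depth, nuclei per column and barcodes shared between libraries could not be counted, and no interval is given.

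Of 19632 rows, 23 with date-like names were left out, and 92 columns (23 clusters of 4 mice) were used. Cluster names follow the sheet order in the study's marker table and were checked on the marker lists with standardised mean log2 levels. Differences were taken between log2(level + 1) values, with a filter of 0.5 on the larger level and a threshold of 0.2; with 1 mouse per group there was no test. The code was tested on simulated data. Positions came from the GENCODE annotation of GRCm38, promoter windows from RefSeq (GRCm38.p6), and coding sequences from GENCODE transcripts. Motifs were searched in the 250 bases before each start.

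The genes named were the 3 chosen genes, called members of 4 gene lists, the 5 leading genes in each direction in PT-S3-2, the 3 genes most like each, the 2 nearest genes on each side, and mouse *Klf6*; *Isoc2b*, *Isoc1* and levels of the genes most like each follow from these. A called member of the list of the AFF family and elongation is not reported here by name. The genes, lists and tests were chosen with earlier results of these data known. The counts of mice set apart and of genotypes that do not overlap, and the levels of marker lists beside a result, were chosen after the values were seen. Counts of called clusters and differences in PT-S3-2 of the 3 genes were recomputed with a pseudocount of 0.1 and without the filter. They were also recomputed with a minimum of 2, with thresholds of 0.5 and 1, with centring on the median, and without mitochondrially encoded genes. Counts of the 4 gene lists were recomputed with that pseudocount, without the filter and with centring only. Single differences in other clusters, ranks, mice set apart, genotypes that do not overlap and correlations were not compared in this way. Python 3.11.15, numpy 2.4.6, pandas 2.3.3 and matplotlib 3.10.9 were used.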

Additional observations from a re-analysis of the deposited data

Results flagged for a closer look

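For 6 results the 2 differences set side by side lay past the threshold in opposite directions. None of these differences between differences was tested, since each rests on 1 mouse per condition. The genotype difference of *Aff3* in LH-DL was -0.97 without injury and 0.50 with AAI, with podocyte markers lowest in the mouse in which *Aff3* was lowest. The genotype difference of *Nt5e* in PT-S3-2 was 0.99 without injury and -0.21 with AAI, in the cluster and uninjured pair by which the gene was chosen. In IC-B-1 the genotype difference of *Nt5e* was -0.42 without injury and 0.54 with AAI, from levels of 1.17 and 0.618 and of 0.205 and 0.748. In macrophages it was 0.67 without injury, where the control mouse was listed at 0, and -0.49 with AAI. The AAI difference of *Nt5e* in macrophages was 0.84 in control mice and -0.32 in hKLF6-OE mice. In InjuredPT-A the AAI difference of *Nt5e* was -0.22 in control mice and 0.22 in hKLF6-OE mice, both near the threshold.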

How the results depend on the processing

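No difference in PT-S3-2 reversed its direction under any alternative in which it passed. Of the values recomputed, 133 were differences that kept their side of the threshold or counts within 1.5 times. Another 42 were counts that moved further. In PT-S3-2, 6 differences fell below a threshold of 0.5 or 1 or both. The AAI difference of *Aff3* in hKLF6-OE mice there passed the threshold with a pseudocount of 0.1 (0.20). That pseudocount enlarged called differences in PT-S3-2 by over 1.5 times for *Aff3* between genotypes (3.29 without injury, 0.52 with AAI) and with AAI in control mice (2.97), and for *Isoc2a* between genotypes without injury (-2.002) and with AAI in hKLF6-OE mice (2.005). No paired analysis was possible because each group holds 1 mouse, and no mouse could be left out. The counts of clusters followed the filter and threshold. With no filter *Aff3* was higher in 8 clusters without injury (1 as reported) and changed with AAI in 2 control (1) and 7 hKLF6-OE clusters (3); *Isoc2a* was lower in 16 without injury (10) and changed with AAI in 7 control (3) and 11 hKLF6-OE clusters (6). With a minimum of 2, *Aff3* was higher in 0 without injury, higher in 1 with AAI (3) and changed in 0 control clusters; *Nt5e* was higher in 2 (9) and 1 (3) and changed in 0 (6) and 3 (11); all 4 counts of *Isoc2a* were 0. At a threshold of 0.5, *Aff3* was higher in 1 with AAI and changed in 1 hKLF6-OE cluster; *Nt5e* was higher in 4 without injury and changed in 3 and 3; *Isoc2a* was lower in 3 without injury, 0 with AAI, and changed in 0 control clusters. At a threshold of 1, *Aff3* was higher in 0 with AAI and changed in 0 and 1, *Nt5e* was higher in 0 and 0 and changed in 0 and 1, and *Isoc2a* counts were 0. A pseudocount of 0.1 gave 10 changed control clusters for *Nt5e*, 5 for *Isoc2a*, 5 AFF and elongation genes with AAI (3) and 1 intracellular nucleotidase gene with AAI (0). Centring left 0 of the latter without injury (1), and leaving out mitochondrially encoded genes made 2 clusters higher for *Aff3* without injury, with PT-S3-3 at the edge of the filter. The number of nuclei behind each column is unknown here, so single calls in sparse clusters cannot be weighed.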
